A study of Lactuca sativa with 12 samples.

Results

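LsCBF3, LsCBF4, LsCBF5 and LsCBF7 are 4 lettuce CBF/DREB1 genes that lie near each other on chromosome 9, between 62.2 and 62.8 Mb of the lettuce genome (version 8). They were chosen by position and by the names given in the study, not by their levels. In the files they are Lsat_1_v5_gn_9_53921.1 (LsCBF3), Lsat_1_v5_gn_9_53960.1 (LsCBF4), Lsat_1_v5_gn_9_54101.3 (LsCBF5) and Lsat_1_v5_gn_9_54581.2 (LsCBF7). These are 4 of the 11 LsCBF genes and of the 23933 genes in the table, and all 4 were tested. Of the 14 LsCBF genes named in the study, LsCBF2, LsCBF6 and LsCBF13 were not analysed here.

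CBF/DREB1 proteins are transcription factors with an AP2 DNA-binding domain. In Arabidopsis, CBF1, CBF2 and CBF3 are transcribed soon after a shift to low temperature, bind the CRT/DRE element in promoters and activate cold-regulated (COR) genes, whose products help leaf cells to withstand freezing. The reading frame of LsCBF7 is described in the study as broken by a nonsense mutation within the AP2 domain, so that its transcript, unlike those of LsCBF3, LsCBF4 and LsCBF5, is not predicted to encode a full CBF protein.

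RNA was sequenced from above-ground tissue of the cultivar Salinas, with no transgene or mutant line, from warm plants (0 h) and from plants cold-treated for 4 h, 24 h or 7 d, with 3 biological replicates of each and 12 libraries in all. The 0 h plants were 18 days old and had been grown at 20 °C in 350 to 400 µmol m−2 s−1 of light, and the other plants were moved at that age to 4 °C and 100 µmol m−2 s−1. All were kept under a 16-h photoperiod. The move changed light as well as temperature, and by 7 d the plants had also aged, so cold, light and age cannot be told apart. Warm plants were sampled only at 0 h, and the study does not give the hour of day of sampling. An effect of the hour, which could differ between 0 h and 4 h, cannot be told apart either.

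The qRT-PCR primers of the study for these genes are shown, with those of LsCBF6 beside those of LsCBF5. The capitals in the LsCBF5 and LsCBF6 primers are the positions at which that pair differs, 7 of 26 in the forward primer and 5 of 26 in the reverse primer. The other primers have no capitals.
LsCBF3 forward: aggatatggttggggacttttccg
LsCBF3 reverse: tccaagcagaatccgcaaagttcaaa
LsCBF4 forward: aaccatcggtggtgtaggatatggg
LsCBF4 reverse: cacttaccggagttcctcctccttatt
LsCBF5 forward: tgaAtacCaaaactcAtatcCCGcaG
LsCBF6 forward: tgaCtacAaaaactcCtatcTAAcaC
LsCBF5 reverse: TgtttgagttTgaagaggatGctaAC
LsCBF6 reverse: CgtttgagttCgaagaggatCctaGA
LsCBF7 forward: ccgatcccgaagtctagcagcatac
LsCBF7 reverse: tccacaacttccttcacttccttcgt

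LsCBF5 and LsCBF6 share a locus number and only LsCBF5 was analysed here. The study describes them as lying at separate places on the chromosome, each with reads of its own. How reads that fit several LsCBF genes were treated is not given in the sources used here, and the values of the members are uncertain to that degree.

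Levels are given in CPM, reads of a gene per 1000000 reads of the table. The smallest library held 18609189 reads and the largest 25952306, so that a single read counted as 0.0385 to 0.0537 CPM. The 2 pairs of libraries with 0 h replicate 3 had a Pearson's r across genes of 0.980 and 0.982, against 0.992 to 0.996 for the other 10 pairs of one time-point, so values at 4 h against 0 h are also given without it. Rubisco small chain (14290 CPM at 0 h) and chlorophyll a-b binding protein 16 (1517 CPM), markers of green tissue, were abundant at 0 h, which fits the tissue label. Both were lower at 7 d, by log2 fold changes of −2.53 and −2.08 (limma, adjusted p = 6.05e-10 and 1.11e-07), and in bulk tissue fewer cells of a type and less RNA per cell cannot be told apart.

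All 4 genes had their highest mean level at 4 h, and for each of them every 4 h library was above every 0 h library. How many of all genes separated in this way was not counted, here or in the later comparisons of libraries. The later levels of the 4 genes are described gene by gene. In the test of read shares given below, only LsCBF5 with LsCBF7 and LsCBF3 with LsCBF5 changed over time. For the other pairs a difference in time course was not shown. LsCBF4 was seen almost only at 4 h, from few reads, and LsCBF3 had faded by 7 d. LsCBF5 stayed above its very low warm level. LsCBF7 levelled off from 24 h on, at 36.0% ± 6.67 of its 4 h level and then 38.7% ± 2.13 at 7 d (SD, n = 3).

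LsCBF7 had the most reads of the 4. Its level in the 3 warm replicates was 3.95, 5.44 and 4.14 CPM. After 4 h it was 55.2, 67.6 and 56.3 CPM, after 24 h 17.9, 20.8 and 25.8 CPM, and after 7 d 21.9, 23.0 and 24.4 CPM. No cold library came down to the range of the warm ones, and the 24 h and 7 d libraries overlapped with each other and lay below all 4 h libraries. The mean rose from 4.51 ± 0.814 to 59.7 ± 6.87 CPM (SD, n = 3) in the first 4 h.

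LsCBF5 was almost silent in warm plants, with 2 reads in each of the 3 libraries at 0 h, which is 0.103, 0.0990 and 0.0952 CPM. It reached 4.86, 5.38 and 4.94 CPM at 4 h, from 92, 101 and 92 reads. The level was 1.08, 1.33 and 2.61 CPM at 24 h and 0.748, 1.08 and 1.16 CPM at 7 d. Every cold library was thus above every warm library, and the last 2 time-points overlapped. The 4 h replicates were close to each other (5.06 ± 0.283 CPM), whereas those at 24 h were spread (1.67 ± 0.817 CPM), with replicate 3 the highest.

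LsCBF3 had 0.103, 0.148 and 0.428 CPM at 0 h, where replicate 3, the library that stood apart, held 9 of the 14 reads. It had 1.43, 1.55 and 2.36 CPM after 4 h, then 0.361, 0.713 and 0.947 CPM after 24 h, and finally 0.160, 0.193 and 0.105 CPM. The 24 h libraries overlapped with those at 0 h only through 0 h replicate 3, and the 7 d libraries lay below all those at 24 h and within the range of those at 0 h.

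LsCBF4 was the least read. It had no read in 2 of the 0 h libraries and 4 reads (0.190 CPM) in replicate 3. At 4 h it had 15, 7 and 20 reads, or 0.792, 0.373 and 1.07 CPM. At 24 h it had 0.0516, 0.0475 and 0.142 CPM and at 7 d 0.107, 0.0771 and 0.0527 CPM, in each case 1 to 3 reads. Outside 4 h, 8 of its 9 libraries were at or under 3 reads, so a difference among 0 h, 24 h and 7 d was not detectable at this depth.

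**Figure D1:**
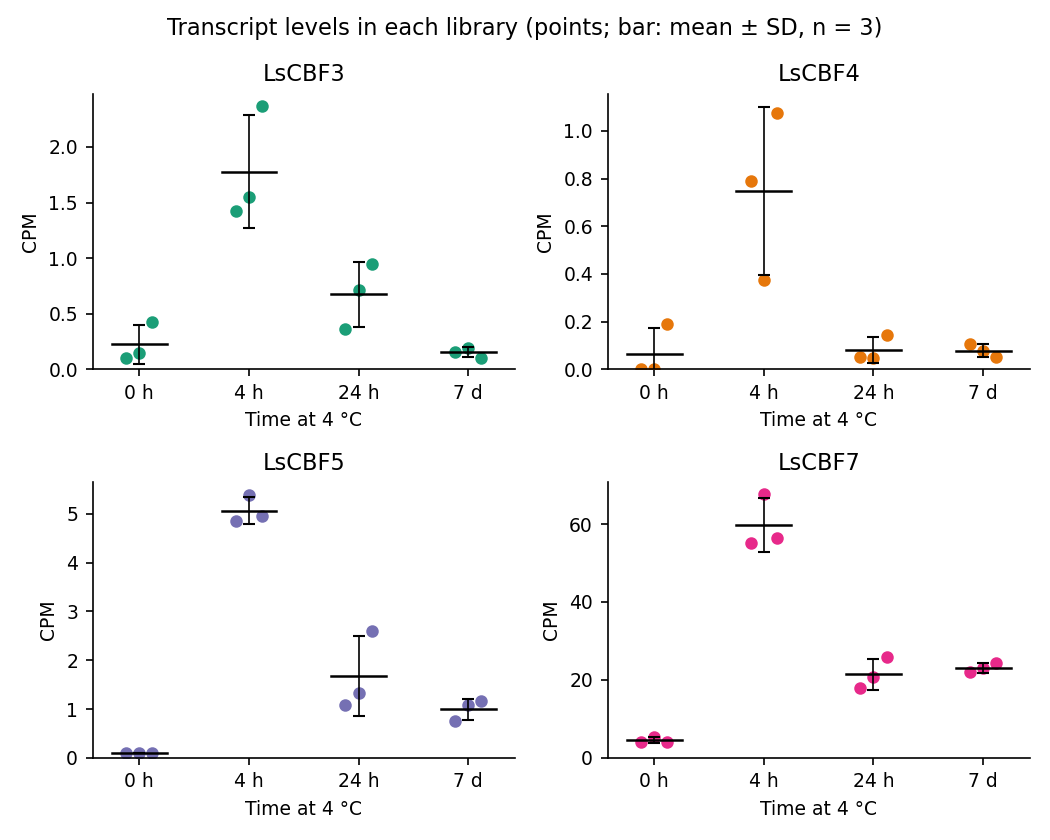
Level of each gene in CPM (linear axis from 0, a scale of its own in each panel) in the 12 libraries by time at 4 °C. Points are libraries, the long bars the means and the error bars the SD (n = 3). In each panel the 4 h libraries are above those of the other 3 time-points, and only LsCBF7 and LsCBF5 stay above all 0 h libraries at 7 d.

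The changes were tested with limma on log2(CPM + 1), where adding 1 CPM makes the fold change of a gene with few reads smaller than the ratio of its levels. A gene was called at a change of at least 2-fold and a Benjamini-Hochberg adjusted p of at most 0.01 over the 22306 genes tested. Beside it stands the ratio of the pooled reads per total, with an exact 95% interval that covers counting error only, and the edgeR quasi-likelihood test on whole reads.

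At 4 h against 0 h, 3 of the 4 genes were called higher, against 5.15% of all genes tested, and none lower, against 0.592%. The log2 fold change was 3.47 for LsCBF7 (SE 0.145, limma adjusted p = 6.54e-09), 2.46 for LsCBF5 (SE 0.169, limma adjusted p = 4.28e-07) and 1.17 for LsCBF3 (SE 0.159, limma adjusted p = 1.60e-04). LsCBF4 passed the limma adjusted p (0.00262) but not the fold, with 0.70 (SE 0.138). In edgeR, which called 6.18% of genes higher, all 4 rose, by 3.68 for LsCBF7, 5.55 for LsCBF5, 2.86 for LsCBF3 and 3.33 for LsCBF4, the last with an edgeR adjusted p of 0.00755. Without 0 h replicate 3, limma called the same 3 genes, with 3.42 for LsCBF7, 2.46 for LsCBF5 and 1.29 for LsCBF3 (limma adjusted p = 1.67e-04), and LsCBF4 had 0.78.

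By reads, the level at 4 h was 51.2 times that at 0 h for LsCBF5 (interval 23.2 to 141), 13.2 times for LsCBF7 (11.7 to 15.0), 11.3 times for LsCBF4 (4.11 to 43.5) and 7.70 times for LsCBF3 (4.38 to 14.6). The interval of LsCBF5 lay above those of LsCBF7 and LsCBF3 and overlapped that of LsCBF4. The intervals of LsCBF4 and LsCBF3 overlapped each other and that of LsCBF7. Without 0 h replicate 3 the ratio was 50.2 for LsCBF5 (19.4 to 186), 14.1 for LsCBF3 (5.85 to 44.4) and 12.7 for LsCBF7 (10.9 to 14.8). LsCBF4 then had 0 warm reads and was at least 9.87-fold higher, against a floor of 3 reads over the 2 libraries. LsCBF3 thus moved from the lowest ratio to one above that of LsCBF7, and its interval then overlapped that of LsCBF5.

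At 24 h against 0 h, 2 of the 4 were called higher, against 5.99% of all genes, and none lower, against 3.55%. LsCBF7 was up by 2.02 (limma adjusted p = 3.63e-07) and LsCBF5 by 1.24 (limma adjusted p = 8.37e-05). The values were 0.44 for LsCBF3 (limma adjusted p = 0.0404) and 0.03 for LsCBF4 (limma adjusted p = 0.897). By edgeR the same pair was called, of 7.18% of genes.

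At 7 d against 0 h, LsCBF7 alone of the 4 was called higher, against 6.81% of all genes, and none lower, against 3.41%. Its log2 fold change was 2.14 (SE 0.145, limma adjusted p = 3.90e-07). Its reads were 5.12 times those at 0 h (interval 4.50 to 5.84). LsCBF5 reached 0.85 on the log2(CPM + 1) scale (limma adjusted p = 0.00111), short of the fold. By reads it was 10.2 times the warm level (4.43 to 28.8), and edgeR, with 6.33% of genes higher, called it with 3.09 (edgeR adjusted p = 1.31e-04). LsCBF3 and LsCBF4 had values of −0.08 and 0.03 (limma adjusted p = 0.696 and 0.892). The median of all genes was itself shifted by 0.15 at 7 d when libraries were scaled by total reads and by 0.02 with TMM factors, which gave LsCBF7 a change of 1.98. With TMM, the genes called at 7 d divided into 987 higher and 1040 lower, against 1518 and 760 without.

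**Figure D2:**
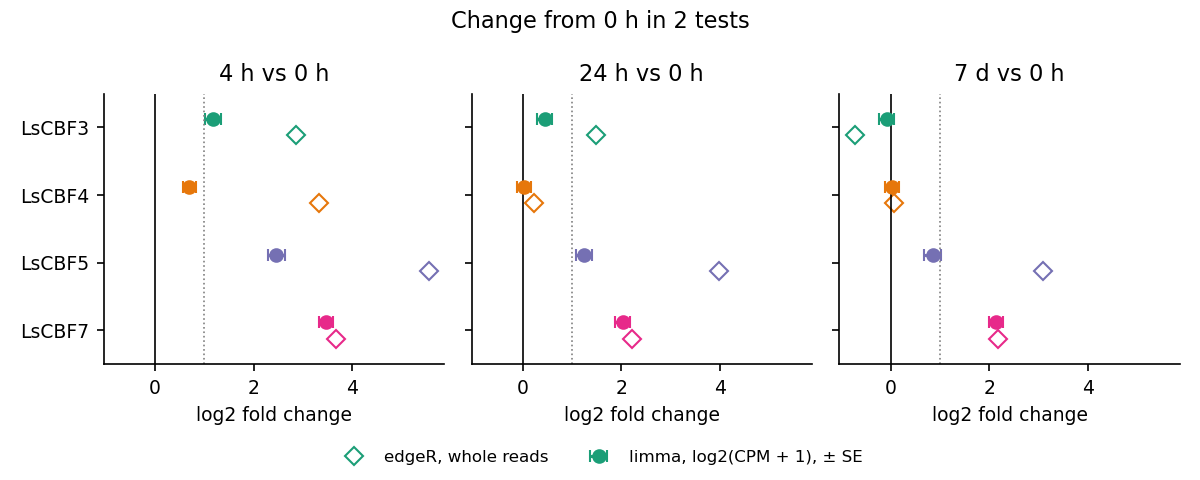
Log2 fold change from 0 h for each gene at 4 h, 24 h and 7 d. Filled circles are limma values on log2(CPM + 1) with their SE, open diamonds are edgeR values on whole reads, and the dotted line marks a 2-fold rise. The 2 tests lie close together for LsCBF7 (3.47 and 3.68 at 4 h) and far apart for LsCBF5 (2.46 and 5.55), the gene with 2 reads in each warm library.

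Between 4 h and 24 h, limma called 2 of the 4 genes lower, against 3.93% of all genes. For each of the 4, every 24 h library lay below every 4 h library. LsCBF7 changed by −1.44 (limma adjusted p = 1.49e-05) and LsCBF5 by −1.22 (limma adjusted p = 1.56e-04). LsCBF3 and LsCBF4 passed the adjusted p but not the fold, with −0.73 and −0.67 (limma adjusted p = 0.00360 and 0.00246). LsCBF4 was called in edgeR, where 5.63% of genes were lower, with −3.10 (edgeR adjusted p = 0.00638). By reads, 24 h stood at 0.362 times the 4 h level for LsCBF7 (0.339 to 0.386), 0.334 for LsCBF5 (0.264 to 0.420), 0.384 for LsCBF3 (0.261 to 0.556) and 0.109 for LsCBF4 (0.0336 to 0.275). The first 3 of these intervals overlap one another, and that of LsCBF4 overlaps with the intervals of LsCBF5 and LsCBF3 but not with that of LsCBF7.

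Between 24 h and 7 d, limma called none of the 4 genes, against 2.52% of all genes lower and 1.17% higher. Of the 4, 2 had an unadjusted limma p under 0.05, and the share of all genes under that value was not counted. In edgeR, where 4.65% of genes were lower, LsCBF3 fell by 2.20 on the log2 scale (edgeR adjusted p = 0.00954), and its reads at 7 d were 0.230 times those at 24 h (0.103 to 0.466). LsCBF7 differed by 0.11 (SE 0.145, limma adjusted p = 0.576), with reads at 1.07 times the 24 h level (0.993 to 1.15). The sign of that small difference turned with TMM scaling. LsCBF5 had reads at 0.595 times the 24 h level (0.429 to 0.820), but its libraries overlapped and the tests did not pass (limma −0.39, adjusted p = 0.0937).

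Over the whole cold period from 4 h to 7 d, limma called 3 of the 4 genes lower, against 6.21% of all genes. The 7 d libraries of all 4 lay below their 4 h libraries. The changes were −1.61 for LsCBF5 (limma adjusted p = 1.04e-05), −1.33 for LsCBF7 (limma adjusted p = 1.41e-05) and −1.25 for LsCBF3 (limma adjusted p = 4.29e-05). LsCBF4 had −0.67 (limma adjusted p = 0.00141) and was called in edgeR, as were the other 3, against 10.1% of genes. These comparisons share libraries with those above, so their values are set side by side and not counted as separate evidence.

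Read as a share of its own 4 h mean, LsCBF7 kept the largest part of its peak at 7 d. It was at 38.7% ± 2.13, LsCBF5 at 19.7% ± 4.30, LsCBF4 at 10.6% ± 3.64 and LsCBF3 at 8.59% ± 2.48 (SD, n = 3). The libraries of LsCBF7 (36.7% to 41.0%) did not overlap with those of LsCBF5 (14.8% to 22.9%). LsCBF5 in turn lay above LsCBF3 (5.93% to 10.8%) and LsCBF4 (7.06% to 14.3%), and these last 2 genes overlapped. By pooled reads, the counting interval of LsCBF7 at 7 d against 4 h (0.364 to 0.412 times) lay above those of LsCBF5 (0.149 to 0.261), LsCBF4 (0.0325 to 0.266) and LsCBF3 (0.0412 to 0.170), which overlapped one another. At 24 h, in contrast, LsCBF3 (37.9% ± 16.6), LsCBF7 (36.0% ± 6.67) and LsCBF5 (33.1% ± 16.1) overlapped, while LsCBF4 (10.8% ± 7.16) was below the other 3.

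**Figure D3:**
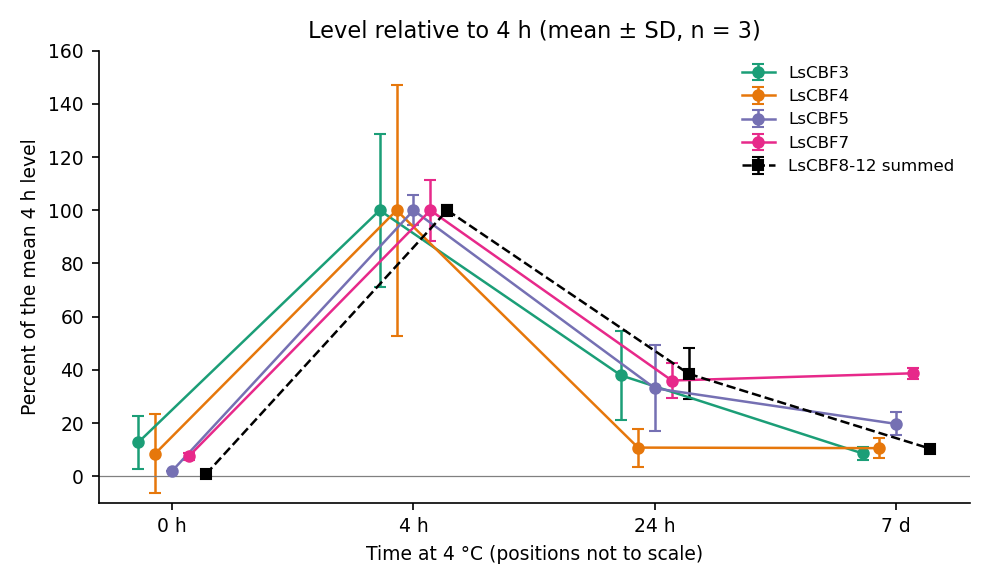
Mean level of each gene at each time-point as a percent of its own mean at 4 h, with the SD (n = 3), and the same for the summed LsCBF8 to LsCBF12 cluster (black squares, dashed). Times are evenly spaced and not to scale, and points are shifted sideways to keep them apart. At 7 d LsCBF7 is at 38.7% of its peak, while LsCBF3 (8.59%), LsCBF4 (10.6%) and the LsCBF8 to LsCBF12 cluster (10.4%) are near each other.

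Whether any 2 of the genes followed the same time course was tested on their ratio within a library. All 369600 ways of assigning the 12 libraries to the time-points were enumerated, so the smallest possible p was 6.49e-05. On log2(CPM + 1) the adjusted exact permutation p over the 6 pairs ran from 3.90e-04 to 0.00701, and with 0.1 CPM in place of 1 from 0.00409 to 0.0177. Adding a constant shifts the ratio of genes at different levels even where both rise by the same fold, so these values do not show different time courses. Therefore each pair was also compared, after the data had been seen, by the share of the first gene in the reads of the pair, with nothing added. On that measure 2 of the 6 pairs changed over time, LsCBF5 with LsCBF7 (adjusted exact permutation p = 0.00312) and LsCBF3 with LsCBF5 (adjusted exact permutation p = 0.00273). The other 4 pairs had adjusted exact permutation p-values from 0.116 to 0.979, and 3 of these include LsCBF4. The remaining pair was LsCBF3 with LsCBF7 (adjusted exact permutation p = 0.169). There the share of LsCBF3 at 7 d (0.429% to 0.832%, from 10 LsCBF3 reads) lay below that in every other library (at least 1.98%). The share was most spread at 0 h (SD 3.92).

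LsCBF5 made up 2.19% ± 0.376 of the reads of LsCBF5 and LsCBF7 in warm plants, 7.85% ± 0.406 after 4 h, 6.97% ± 1.92 after 24 h and 4.11% ± 0.696 after 7 d (SD, n = 3). Every cold library was above every warm one in this share, and at 7 d the libraries (3.30% to 4.53%) lay below all those at 4 h and 24 h. LsCBF3 made up 63.9% ± 16.3 of the reads of LsCBF3 and LsCBF5 in warm plants, from 14 and 6 reads, and 25.8% ± 5.69, 28.9% ± 5.29 and 13.7% ± 4.82 at the 3 cold time-points. In this pair too the warm libraries lay apart from all cold ones.

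LsCBF7 held 92.0% ± 5.82, 88.6% ± 1.60, 90.2% ± 2.48 and 95.0% ± 0.564 of the reads of the 4 genes, in the order of the time-points. Gene lengths were not used here, so these are shares of reads and not of transcripts. The sum of the 4 genes therefore mostly follows LsCBF7. It was 4.90 ± 0.770 CPM in warm plants, and 67.3 ± 6.71, 23.9 ± 5.11 and 24.3 ± 1.42 CPM at the 3 cold time-points.

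Next to this group on chromosome 9 lies the LsCBF8 to LsCBF12 cluster, and LsCBF14 stands farther along the chromosome by its number. Among all reads of the 11 LsCBF genes, the 4 members made up 29.0% ± 5.54 in warm plants, 20.7% ± 2.07 after 4 h, 18.3% ± 1.25 after 24 h and 24.7% ± 2.84 after 7 d (SD, n = 3). The share differed between time-points (exact permutation p = 0.0213). That call was lost without 24 h replicate 1 (exact permutation p = 0.0634), without 24 h replicate 3 (exact permutation p = 0.0571), and when LsCBF7 was left out of the members (exact permutation p = 0.184). Without 0 h replicate 3, the library that stood apart, it was 8.44e-04 in the exact permutation test.

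The contrast with the LsCBF8 to LsCBF12 cluster was larger. These 5 genes took 9.95% of LsCBF reads in warm plants and 69.7%, 66.4% and 23.7% at the 3 cold time-points, while LsCBF14 took 60.8%, 9.43%, 15.2% and 51.5%. Against the LsCBF8 to LsCBF12 cluster alone, the 4 members were 74.2% ± 2.72 of the reads in warm plants, 22.9% ± 1.88 after 4 h, 21.7% ± 1.94 after 24 h and 51.1% ± 5.05 after 7 d (exact permutation p = 3.25e-04). This comparison and the next were added after the data had been seen.

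**Figure D4:**
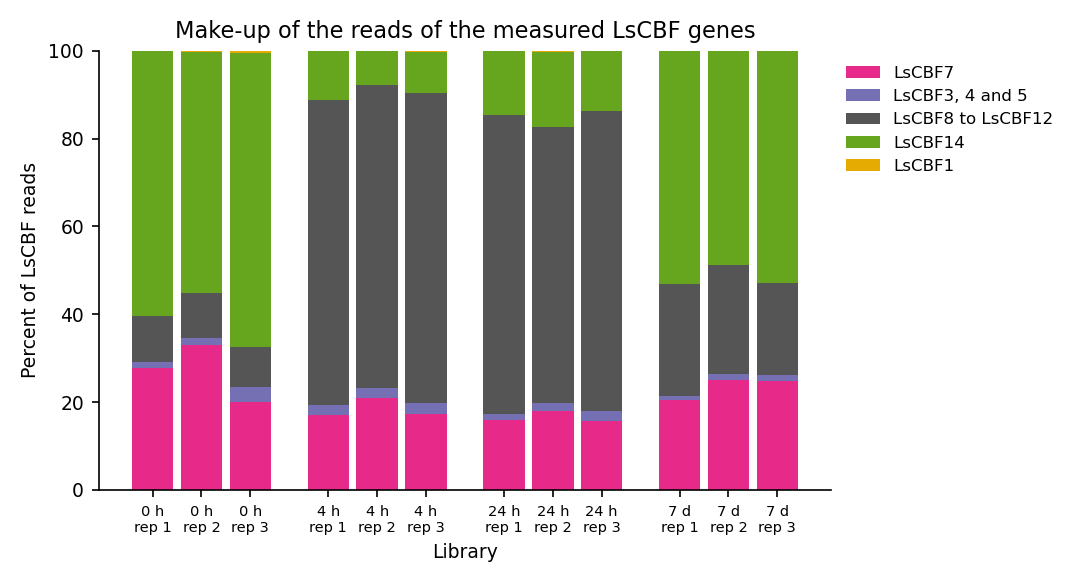
Percent of the reads of the 11 measured LsCBF genes in each library that fell to LsCBF7, to LsCBF3, LsCBF4 and LsCBF5 together, to LsCBF8 to LsCBF12, to LsCBF14 and to LsCBF1. Bars are single libraries and start at 0. LsCBF7 takes 15.7% to 33.0% of the reads, LsCBF8 to LsCBF12 take 9.20% to 10.4% at 0 h and 62.9% to 70.7% at 4 h and 24 h.

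LsCBF7 had 2.69 ± 0.531 times the reads of LsCBF8 to LsCBF12 summed in warm plants, 0.264 ± 0.0329 times after 4 h, 0.250 ± 0.0304 times after 24 h and 1.00 ± 0.195 times after 7 d (SD, n = 3). The log2 ratio of (CPM + 1) differed between time-points (exact permutation p = 3.25e-04), as did the share of their reads with nothing added (exact permutation p = 3.25e-04). Between 4 h and 24 h the 2 moved together, at 36.0% and 38.5% of their peaks. At 7 d the LsCBF8 to LsCBF12 cluster was at 10.4% ± 1.53 of its 4 h level, below every LsCBF7 library. The warm level was 0.748% of the 4 h level for the cluster and 7.56% for LsCBF7. By reads, 7 d against 0 h was 35.9 for LsCBF10, 14.9 for LsCBF11, 8.72 for LsCBF9 and 6.78 for LsCBF12. For LsCBF7 it was 5.12, with an interval (4.50 to 5.84) that overlapped those of LsCBF9 and LsCBF12. LsCBF8 had 0 warm reads and 8 at 7 d. In each of these genes every 7 d library was above every 0 h library.

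For comparison, the log2 fold changes at 4 h were 5.93 for LsCBF11, 5.24 for LsCBF12, 5.19 for LsCBF10 and 2.66 for LsCBF9, all called by limma (largest adjusted p = 2.35e-07). LsCBF8 had 0.95 in limma, under the fold, from 0 reads in the warm libraries and 53 at 4 h, at least 19.0-fold higher against a floor of 3 reads over the group, and edgeR called it (edgeR adjusted p = 2.06e-04). LsCBF14 was called too, by 1.47 (limma adjusted p = 8.76e-05). LsCBF1 was not tested because it was under the level filter. The only LsCBF gene called higher between 24 h and 7 d was LsCBF14, by 1.34, whereas LsCBF7 held its level over that time.

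The genes whose time course was most like that of each member were looked up by Pearson's r of log2(CPM + 1) over the 12 libraries, as a description. LsCBF5 had LsCBF10 as its second closest gene of all (r = 0.984), behind Lsat_1_v5_gn_7_8261.1 (r = 0.988), and its r with LsCBF7 was 0.944. The closest to LsCBF7 was Lsat_1_v5_gn_4_101960.1 (r = 0.990), followed by the O-fucosyltransferase 34 gene Lsat_1_v5_gn_4_112420.4 (r = 0.982). Pearson's r does not weigh the size of a change. From 0 h to 4 h these 2 genes rose from 71.7 to 137 CPM and from 73.0 to 173 CPM, against 4.51 to 59.7 CPM for LsCBF7. LsCBF3 was closest to Lsat_1_v5_gn_8_165301.1 (r = 0.968), followed by a gene for a CCR4-like serine/threonine kinase, Lsat_1_v5_gn_1_25441.1 (r = 0.966), and LsCBF4 to Lsat_1_v5_gn_4_147121.1 (r = 0.974).

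Among the members, r was 0.944 between LsCBF5 and LsCBF7, 0.881 between LsCBF3 and LsCBF5, 0.880 between LsCBF3 and LsCBF4, 0.780 between LsCBF4 and LsCBF5, 0.719 between LsCBF3 and LsCBF7 and 0.656 between LsCBF4 and LsCBF7. Of the 22306 genes, between 117 and 282 had an r of 0.9 or more with each of the 4. Libraries of one time-point share a treatment, and all genes of a library share its depth.

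The genes between LsCBF3 and LsCBF7 by number were also examined, of which 10 are in the table and 9 were tested. By number they fall between LsCBF5 and LsCBF7. Their coordinates were not used, so their physical order may differ. In the study the ID numbers of LsCBF8 to LsCBF12 run against the order of those genes on the chromosome. At 4 h 1 of the 9 was called higher, against 5.15% of all genes, and at 24 h 3 were, against 5.99%, by limma and by edgeR alike. At 7 d neither limma nor edgeR called any of them. An unadjusted limma p under 0.05 was seen for 5, and the share of all genes under that value was not counted. The median log2 fold change of the 9 at 4 h was 0.09, against 1.82 for the 4 members and 0.03 for all genes.

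The neighbour called at 4 h was Lsat_1_v5_gn_9_54500.2, the nearest below LsCBF7 by number, for which the files used here give no annotation. Its mean level was 21.5 ± 2.78 CPM in warm plants, then 94.7 ± 3.44, 136 ± 10.6 and 42.8 ± 6.13 CPM at the 3 cold time-points (SD, n = 3). It changed by 2.09 at 4 h (limma adjusted p = 1.49e-07), 2.61 at 24 h (limma adjusted p = 9.40e-09) and 0.96 at 7 d, so its highest level came at 24 h and not at 4 h. Lsat_1_v5_gn_9_54280.1 and Lsat_1_v5_gn_9_54401.1 were called at 24 h only, with 1.97 and 1.13.

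**Figure D5:**
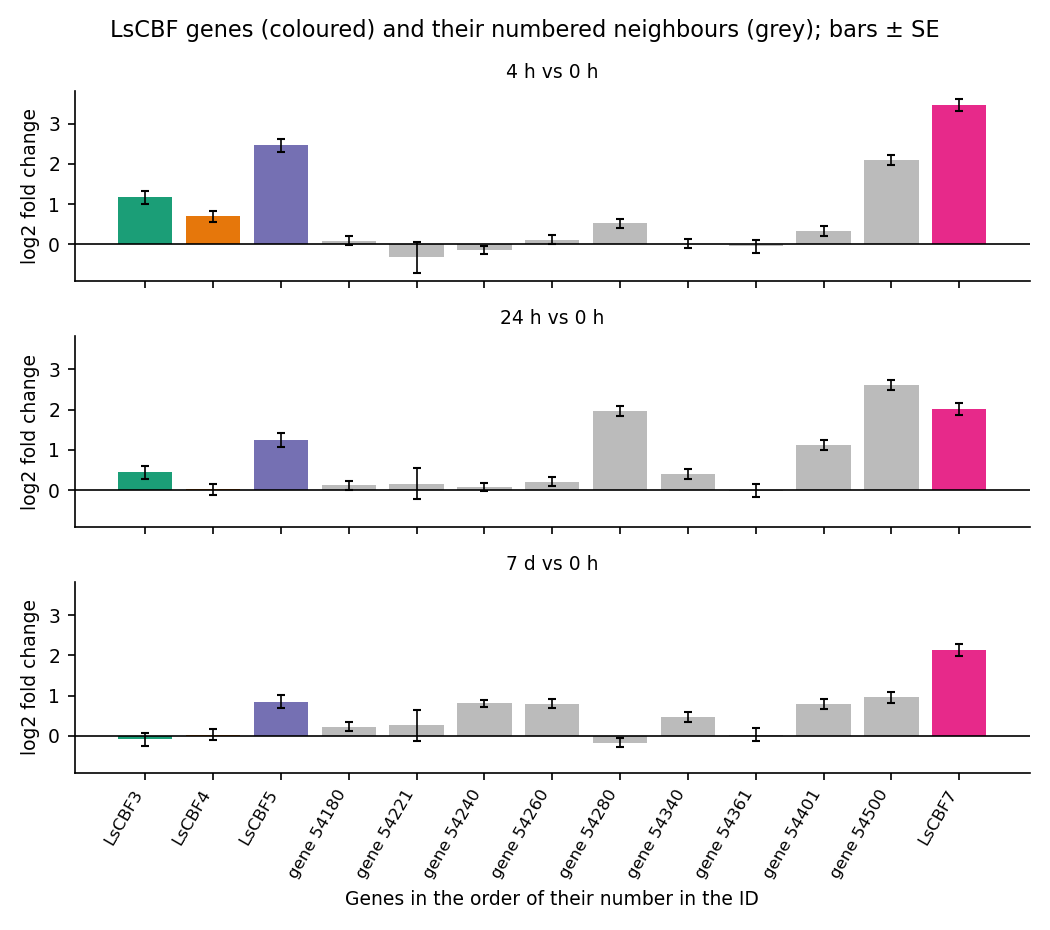
Log2 fold change from 0 h (limma on log2(CPM + 1), bars, with SE) for the 4 LsCBF genes in colour and the 9 tested genes numbered between LsCBF5 and LsCBF7 in grey, in the order of their ID numbers. At 4 h LsCBF3, LsCBF5, LsCBF7 and gene 54500 (2.09) stand out. LsCBF4 is at 0.70 and was not called by limma, and the other neighbours lie between −0.32 and 0.52.

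Genes known in Arabidopsis to act beside or upstream of CBF genes, such as clock factors and cold-responsive zinc finger proteins, were followed as a list of 11. The list was drawn from genes that the study named on these same samples, so its direction is not independent evidence. At 4 h limma called 8 of the 11 higher and none lower, against 5.15% and 0.592% of all genes, with a median log2 fold change of 1.41 against 0.03 for all genes. At 24 h it called 6 higher and 1 lower, against 5.99% and 3.55%, and at 7 d 4 higher, against 6.81%. In edgeR 9, 6 and 4 were higher, against 6.18%, 7.18% and 6.33% of all genes. By that test 1 was lower at 24 h and at 7 d, where 6.26% and 7.63% of all genes were.

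LHY, a MYB factor of the clock, changed by 3.42, 3.01 and 2.22 at 4 h, 24 h and 7 d, and its relative REVEILLE 1 by 3.87, 2.49 and 1.33, all called by limma. The zinc finger gene ZAT10 (Lsat_1_v5_gn_1_24181.1) rose at 4 h (2.62) and 24 h (1.44) and had 0.38 at 7 d. MYB15, a MYB factor that in Arabidopsis binds CBF promoters, was called only at 4 h (1.39), with 0.26 and 0.15 after that. PRR37, a pseudo-response regulator of the clock, was called lower at 24 h (−1.22), and at 7 d in edgeR only (−1.03, edgeR adjusted p = 1.29e-07).

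A list of 10 protective genes of the kind that CBF proteins activate in Arabidopsis, dehydrins and other LEA proteins among them, was likewise chosen on these samples. Of these, limma called 6 higher at 4 h and 8 at each later time-point, against 5.15%, 5.99% and 6.81% of all genes. None was called lower, against 0.592%, 3.55% and 3.41%. In edgeR 9 were higher at 24 h, against 7.18% of all genes, and 8 at 7 d, against 6.33%. At 7 d 1, a Lea14 homolog, was lower (−1.10, edgeR adjusted p = 7.26e-07), against 7.63% of all genes. The median log2 fold change of the 10 in limma was 1.21 after 4 h, 4.20 after 24 h and 3.35 after 7 d. For all genes it was 0.03, 0.04 and 0.15. Dehydrin Rab18, a hydrophilic protective protein, changed by 1.19, 7.68 and 6.27 at the 3 cold time-points, and dehydrin COR47 by 0.03, 2.61 and 2.55. Both had less than their later level at 4 h, when the 4 members were highest.

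The reference genes of the study for qRT-PCR were not called at any cold time-point. EIF2a, a translation initiation factor gene, had 77.6, 79.8, 104 and 105 CPM in the order of the time-points. IPP2, an isoprenoid synthesis gene, had 40.1, 43.7, 44.8 and 50.9 CPM. Their log2 fold changes from 0 h were between 0.05 and 0.44, against 2.02 to 3.47 for LsCBF7.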

How the data were processed

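The authors sequenced RNA from 12 libraries as paired-end Illumina reads, mapped these to the lettuce genome (version 8) with STAR 2.5.2 and counted reads per gene with featureCounts. The deposited table holds CPM of 23933 genes. The authors' filter was 0.5 CPM in at least 2 samples, and edgeR was used without a named test. Each library of the deposited CPM sums to 1000000, and 100% of values were whole multiples of 1 read within 0.01, so whole reads were recovered. The labels gave groups and replicate numbers, and the study calls the replicates biological.

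Genes that reached 0.5 CPM in 2 or more of the 12 libraries (22306) were tested with limma 3.58.1 (R 4.3.3) on log2(CPM + 1), with 1 model for all 12 libraries and Benjamini-Hochberg adjustment within each contrast. Calls needed a 2-fold change and an adjusted p of at most 0.01. edgeR 4.0.16 and DESeq2 1.42.0 were run on the recovered reads. Member ratios and shares were tested with exact permutation tests of the F statistic. Intervals are exact conditional 95% intervals for counting error. Alternatives were a pseudocount of 0.1, no filter, TMM and RLE factors, fits to only 2 time-points, a replicate block and leaving out each library. Shares of the reads of a pair, with nothing added, were an alternative chosen after seeing the data. The limma, edgeR and DESeq2 fits were tested on simulated reads at 4 h against 0 h, and the permutation test without a block on random values. The other steps had no simulated test. The genes named were the 4 members, the other LsCBF genes, at most 4 of each list, the neighbours called and the 3 genes most like each member. Members and lists were chosen with earlier results of these data known. LsCBF2, LsCBF6 and LsCBF13, gene lengths, coordinates of single genes and sequences other than primers were not used here. None of the member IDs matched the RefSeq table supplied.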

Additional observations from a re-analysis of the deposited data

How the results depend on the processing

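The 11 calls of limma over the 4 genes and 6 contrasts were kept under every alternative run (largest adjusted p = 0.00266). Further calls came where few reads weigh more. The number of genes called at 7 d against 0 h was 2 instead of 1 with a pseudocount of 0.1, in edgeR and in DESeq2, through LsCBF5. Between 24 h and 7 d it was 1 instead of 0 in edgeR and in DESeq2, through LsCBF3. Leaving out single libraries changed none of the 6 counts. The p of the share of LsCBF reads ranged from 8.44e-04 to 0.0634 with single libraries left out and was 0.184 without LsCBF7 (exact permutation tests). The adjusted p of the ratio, with no pseudocount, was 0.116 for LsCBF3 and LsCBF4, 0.169 for LsCBF3 and LsCBF7, 0.979 for LsCBF4 and LsCBF5 and 0.862 for LsCBF4 and LsCBF7 (exact permutation tests). These pairs had an adjusted p under 0.05 only with a constant added. Signs turned only for changes near 0, none of them called. For LsCBF7 from 24 h to 7 d the log2 fold change was −0.0014 with TMM, −0.015 with RLE, −0.024 in edgeR and −0.033 in DESeq2, and −0.0035 to 0.25 with single libraries left out. That of LsCBF4 was 0.016 with a pseudocount of 0.1 and −0.023 to 0.039 with single libraries left out. Against 0 h, leaving out libraries gave −0.015 to 0.11 for LsCBF4 at 24 h, −0.016 to 0.11 for LsCBF4 at 7 d, and −0.15 to 0.034 for LsCBF3 at 7 d.

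The labels do not say that replicate numbers mark a shared batch. Of the 18 same-numbered pairs, 6 had a correlation of deviations over 0.1 (−0.219 to 0.187), against 4 of the 36 different-numbered pairs (−0.244 to 0.259). The medians were 0.038 and −0.016. As the labels name no batch, the numbers were not taken as pairs in the main fits, though some shared structure is possible. With the replicate number as a block, limma again gave 11 calls, and the p of the share was 0.0278 (exact permutation test within numbers). The depth limits LsCBF4 most, with 8 of 12 libraries at or under 3 reads.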
